A study of Brassica oleracea var. italica with 5 samples.

Results

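Seeds of the broccoli cultivar Qingxiu were compared with the cotyledons of 11 day sprouts, the start and the oldest cotyledon stage of a series of 5 libraries. The seeds were sampled in the imbibed state, after surface sterilization with NaClO, rinsing and a night on moist filter paper, and the submitters label them as germinated seed at day 0. The cotyledons came from sprouts grown in peat and vermiculite at 24°C with 16 h of light, at a set humidity and light level. The sprouts were watered with Hoagland's solution, a nutrient solution, and none is named for the seeds on filter paper. No genotype or treatment other than these is named for either sample. Material of 3 biological replicates was pooled by equal weight before sequencing, so there is 1 library a side. A ratio therefore compares these libraries, and the spread between plants could not be measured.

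Of 19441 assembled unigenes (transcripts named by their best match, mostly in *Arabidopsis*), 16894 had at least 20 reads in the seed and 11 day cotyledon libraries together and entered the comparison. A further 2256 had fewer reads and 291 had none. The 91 unigenes with exactly 20 reads had a median log2 ratio of 0.54, and the 86 with 19 reads, which were left out, had 0.40. The seed library held 9563149 mapped reads and the 11 day cotyledon library 10312625. Values are normalized reads, that is, counts divided by the DESeq size factors of the authors, on which 1 read is worth 0.708 in seeds and 1.07 in 11 day cotyledons. Unless stated otherwise, a pair of values gives seeds and then 11 day cotyledons, and the range in parentheses after a fold is its exact 95% interval, which covers counting error only. Where a library had no read, the fold was computed against a floor of 3 reads and is given as a lower bound.

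During imbibition a brassica embryo takes up water, begins to break down its reserves, and loses the RNA that accompanied drying on the mother plant. The cotyledons, which stored oil and protein in the seed, then expand, green and photosynthesize for the seedling until the true leaves take over. Seeds and young cotyledons are also rich in glucosinolates, the sulfur-containing defense compounds for which broccoli sprouts are eaten. Jasmonate and abscisic acid are hormones of wounding, drought and aging leaves, and abscisic acid also holds seeds dormant.

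A unigene was called higher or lower where the ratio was at least 2-fold, its interval excluded 1, and the libraries together held at least 20 reads. In 11 day cotyledons 5222 unigenes (30.9%) were called higher and 4738 (28.0%) lower than in seeds, and 6934 were not called. With total mapped reads as the scale in place of the size factors the split was 3707 higher and 7378 lower, and the median log2 ratio of all unigenes then stood at -0.73 rather than -0.03. The quartiles on the size factor scale were -1.15 and 1.42. On the size factor scale large ratios were more often upward. At least 10-fold differences numbered 1809 higher and 797 lower, and at least 100-fold differences 246 and 80. These limits were not counted by total reads, which moves every ratio down, so the upward excess may depend on the scale. A total of 280 unigenes tested had no read in seeds, and 313 had none in 11 day cotyledons. In whole tissues, fewer cells of a type and less RNA per cell cannot be told apart, and the seed also holds a radicle, a shoot apex and a seed coat, which the harvested cotyledons lack.

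**Figure D1:**
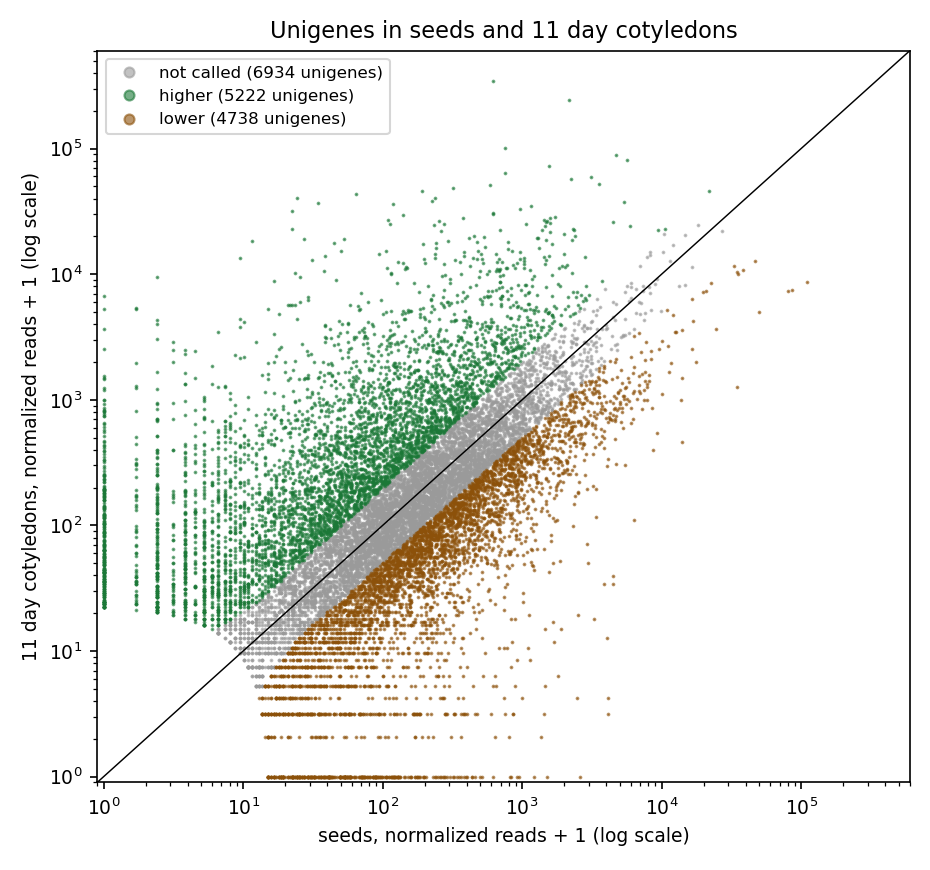
Normalized reads plus 1 of each unigene tested in seeds (x axis, log scale) and 11 day cotyledons (y axis, log scale), colored by call, with the line of equal values. The 5222 unigenes called higher and the 4738 called lower form clouds on either side, and the columns and rows at the edges hold unigenes with few or no reads in one library.

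The reserve and desiccation genes of the seed were lower in 11 day cotyledons almost without exception. All 5 seed storage protein genes tested, of 10 written in the list and 5 with a unigene, were lower in 11 day cotyledons, with a median log2 ratio of -7.47 (-6.27 with libraries without reads set at the floor). PAP85 (AT3G22640), a vicilin-like globulin, had 729 reads in seeds against none in 11 day cotyledons, which is at least 160.4-fold lower. CRA1, a cruciferin subunit, counted 516 reads in seeds against 1 in 11 day cotyledons, 341-fold (60.9 to 13476) lower. SESA3, a napin-type albumin, had 350 reads and none. These were not abundant in seeds either. Per kilobase of unigene, the normalized value of CRA1 was 171 in seeds and that of isocitrate lyase 7302.

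Oil body proteins followed, with 6 of 7 tested members lower (9 written, 7 with a unigene) and a median log2 ratio of -5.10. The oleosin OLEO4 had values of 1681 in seeds and 10.7 in 11 day cotyledons, 157-fold (85.1 to 327) lower, and ATS1, the caleosin that also coats oil bodies, had 253 and 6.43, 39.4-fold (17.9 to 108) lower. OLEO1 was lower too, with a ratio of 11 day cotyledons over seeds of 0.0984 with TMM factors and 0.0584 by total reads. The sterol dehydrogenase HSD5 was the member not called, at 92.0 and 77.2. Late embryogenesis abundant proteins, which protect the drying embryo, were lower in 16 of 17 tested members (24 written, 18 with a unigene), with a median log2 ratio of -5.87. EM6, an abundant hydrophilic protein of the mature embryo, had 1908 and 13.9, which is 137-fold (79.9 to 257) lower. AT3G53040 had 380.0 and 2.14, 177-fold (48.8 to 1467) lower, and M10 347 and 3.22, 108-fold (36.7 to 525) lower. LEA4-5, which is also induced by drought in vegetative tissue, was the exception at 19.8 and 17.2 and was not called.

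Heat shock proteins that accumulate in maturing seeds were lower as well. Of 12 tested, 10 were lower (median log2 ratio -2.79, 15 written, 12 with a unigene). HSP90.1, a chaperone, had 5270.1 and 600.4, 8.78-fold (8.05 to 9.58) lower. A chaperone of the HSP70 class, listed as HSP70, had 3849 and 33.2, 116-fold (81.5 to 171) lower, and the mitochondrial HSP23.6 had 1805 and 5.36, 337-fold (144 to 1038) lower. HSP101, a disaggregase, was low in both libraries, at 56.6 and 36.5, and was not called, though lower by total reads.

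The regulators of seed maturation and dormancy were split. Of 18 written, 14 had a unigene and 11 entered the comparison, of which 6 were lower and 1 was higher, with a median log2 ratio of -5.48. ABI3, a master regulator of seed maturation, counted 457 reads in seeds against 2 in 11 day cotyledons, 151-fold (41.5 to 1249) lower. ABI4, another transcription factor of abscisic acid signaling, had 649 and 2 reads, and SOM, a light-controlled repressor of germination, 454 and 2. AHG1, a protein phosphatase that acts in seed abscisic acid signaling, had 3643 reads in seeds and no read in any of the other 4 libraries, at least 801-fold lower. Its relative AHG3 ran the other way, with 287 and 2942, 10.2-fold (9.22 to 11.4) higher. The embryo regulators FUS3, LEC1 and L1L had 1, 10 and 18 reads in seeds and were under the minimum. With only unigenes no longer than their matched gene, 5 members were left and the median log2 ratio was -0.85.

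Genes of germination itself, the loosening of cell walls and gibberellin synthesis and signaling, were mostly lower. Of 22 tested (24 written, 23 with a unigene), 12 were lower and 2 higher, with a median log2 ratio of -1.07. EXPA2, an expansin linked to endosperm weakening in *Arabidopsis*, had 2119 reads in seeds and no read in the other 4 libraries, at least 466-fold lower. The peroxidase PER62 counted 3490 reads in seeds against 3 in 11 day cotyledons, 768-fold (262 to 3725) lower. CP1, a cysteine protease, had 989.9 and 3.22, 308-fold (105 to 1494) lower. GA3OX1, which makes active gibberellin, had 171 reads and none, at least 37.6-fold lower, whereas GA2OX2, which inactivates it, had 46.7 and 237, 5.07-fold (3.84 to 6.79) higher. Among the DELLA repressors RGL1 and RGL2 were lower (14.1-fold lower and 13.3-fold lower), while GAI, RGA and RGL3 were not called.

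Genes that turn oil into sugar were abundant in seeds, and only some were lower in 11 day cotyledons. Of 18 members of beta-oxidation and the glyoxylate cycle, all with a unigene and all tested, 8 were lower, 3 higher and 7 not called, with a median log2 ratio of -0.74. Isocitrate lyase (ICL, AT3G21720), which is specific to the glyoxylate cycle, had 34489 and 1257, 27.4-fold (25.9 to 29.1) lower. Malate synthase (MLS), its partner, had 6844 and 1552, 4.41-fold (4.17 to 4.66) lower. PCK1, which commits the carbon to sugar, had 14053 and 1500, 9.37-fold (8.87 to 9.90) lower. The thiolase KAT2, which also acts in the last steps of jasmonate synthesis, was not called, at 16464 and 11478, though lower by total reads, and ACX1, ACX4 and AIM1 were not called either. The isoforms of peroxisomal malate dehydrogenase went opposite ways. PMDH1 had 6266 and 701, 8.94-fold (8.25 to 9.69) lower, and PMDH2 had 236 and 14384, 60.9-fold (54.6 to 68.0) higher. The unigene named ACX2 (14.8-fold higher) spans 4717 bp where the *Arabidopsis* gene spans 2884, so it may join transcripts of more than 1 gene. SDP1, the lipase that starts oil breakdown, had 676 and 1818, 2.69-fold (2.48 to 2.92) higher, but 1.65-fold and not called by total reads.

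Genes of photosynthesis were higher almost without exception. Light harvesting and photosystem subunits took 0.125% of all mapped reads in seeds and 9.11% in 11 day cotyledons. Of 42 genes written, 40 had a unigene and 36 were tested, of which 35 were higher, with a median log2 ratio of 7.41. LHCB1.4 (AT2G34430), an antenna protein of photosystem II and the most abundant unigene of the 11 day cotyledons, had 622 and 347469, 559-fold (523 to 598) higher. LHCB5 had 316 and 48234, 152-fold (139 to 168) higher, and LHCA3, an antenna protein of photosystem I, 584 and 50829, 87.0-fold (81.2 to 93.3) higher. PSAH2, a small subunit of photosystem I, had the largest ratio among *Arabidopsis*-matched unigenes with reads in both libraries and at least 200 together, with 1 read in seeds against 4891 in 11 day cotyledons, 7411-fold (1329.5 to 292776) higher. LHCB4.2 was the member that was lower, on 34 and 2 reads, beside values of 113 and 25182 for LHCB4.1. How far these copies share reads was not tested. The unigenes of 24 of the 36 were longer than their matched gene. Without them the 12 left had a median log2 ratio of 7.47.

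The Calvin cycle, which fixes the carbon, was also higher. Of 22 genes written, 21 were tested, and 18 were higher and none lower, with a median log2 ratio of 4.77. RCA (AT2G39730), the activase of Rubisco, had 2172 and 242773, 112-fold (108 to 116) higher. RBCS3B, a small subunit of Rubisco, had 751 and 100912, 134-fold (127 to 143) higher, and GAPA2, a subunit of the plastid glyceraldehyde-3-phosphate dehydrogenase, 3116 and 59357, 19.05-fold (18.5 to 19.6) higher. RBCS1B was not called, at 206 and 149, and neither were the transketolases TKL1 and TKL2. By total reads RBCS1B counted as lower. Photorespiration, the salvage route for the oxygenated product of Rubisco, was higher in 9 of 10 tested members (12 written), with a median log2 ratio of 3.99. HPR1, the peroxisomal hydroxypyruvate reductase, counted 12 reads in seeds against 12627 in 11 day cotyledons, 1594-fold (912 to 3086) higher. AGT1, an aminotransferase of the peroxisome, had 612 and 29853, 48.8-fold (45.6 to 52.2) higher, and the glycolate oxidase GOX1 1587 and 25693, 16.2-fold (15.5 to 16.9) higher. GLDP1, a subunit of glycine decarboxylase, was higher by 2.40-fold (2.35 to 2.45) but by 1.47-fold, and not called, on the total read scale. Catalases differed. CAT2 was abundant in seeds and not called (13420.2 and 8030.5), though lower by total reads, while CAT3 had 4715 and 88226, 18.7-fold (18.3 to 19.2) higher.

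Chlorophyll synthesis genes were mostly higher. Of 20 tested members (23 written, 21 with a unigene), 13 were higher, 2 lower and 5 not called, with a median log2 ratio of 2.75, and by total reads 11 were higher and 4 lower. PORB (AT4G27440), which reduces protochlorophyllide in the light, was among the most abundant unigenes of the seeds and had 46947 and 12784, 3.67-fold (3.60 to 3.74) lower, with 62008 in 3 day cotyledons. PORC, the isoform of green tissue, had 173 and 2414, 13.9-fold (12.2 to 16.0) higher. CHLH, the large subunit of magnesium chelatase, had 517 and 13200.4, 25.5-fold (23.7 to 27.5) higher, and CHLP, which makes the phytol tail, 507 and 14443, 28.5-fold (26.4 to 30.8) higher. The early enzymes GSA1, HEMB1 and HEMC were not called.

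Chlorophyll breakdown and senescence genes were higher in 13 and lower in 5 of 20 tested members (22 written), with a median log2 ratio of 1.81. By total reads 10 were higher and 6 lower, with a median of 1.15. SEN1, a gene induced by darkness and age, had 125 and 2893, 23.1-fold (19.8 to 27.0) higher. NYC1, which begins the breakdown of chlorophyll b, had 122 and 1813, 14.8-fold (12.7 to 17.42) higher. NYE1, the magnesium dechelatase of leaf yellowing, had 19.8 and 784, 39.6-fold (27.1 to 59.95) higher, but its paralog NYE2, which also degreens seeds in *Arabidopsis*, was lower at 78.5 and 11.8. PAO, the oxygenase that opens the chlorophyll ring, had 436 and 1209 and was higher by 2.77-fold (2.51 to 3.07), and by 1.698-fold, not called, on the total read scale. Genes of late leaf senescence pointed both ways. Of its NAC transcription factors NAP had 8 and 92 reads and was higher, whereas ORE1 had 78 and 6 reads and was lower. SAG29, a sugar transporter, was lower on 113 and 9 reads. SAG21, which is also a late embryogenesis abundant protein, was lower at 756 and 31.1, 24.3-fold (16.8 to 36.5) lower.

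**Figure D2:**
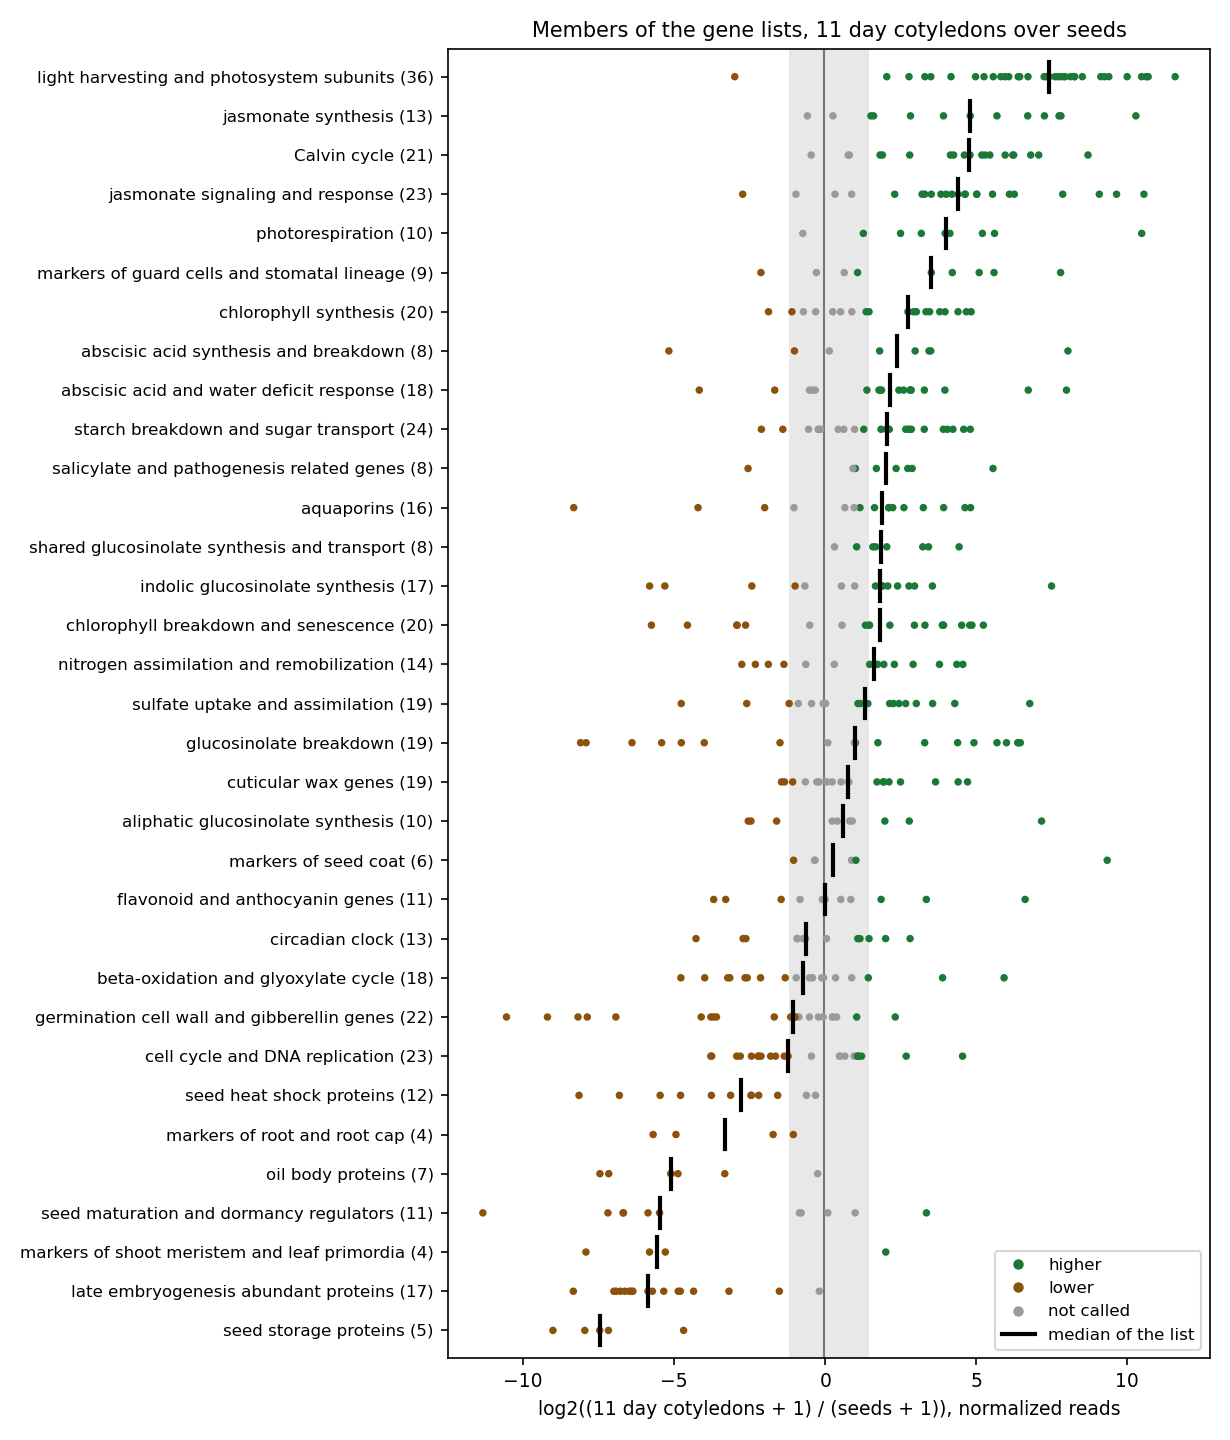
Log2 ratio of 11 day cotyledons over seeds (pseudocount 1, x axis) for each tested member of the 33 gene lists, colored by call, with the median of each list as a black bar and the number tested in parentheses. The gray band and line mark the quartiles and median of all 16894 unigenes, and the lists run from seed storage proteins at -7.47 to light harvesting and photosystem subunits at 7.41.

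Most jasmonate genes were higher in 11 day cotyledons, many by over an order of magnitude. Jasmonate is made from plastid lipids by lipoxygenases, allene oxide synthase and allene oxide cyclases, finished in the peroxisome, and joined to isoleucine, and the conjugate releases the MYC transcription factors from their JAZ repressors. Of 15 synthesis genes written, 13 were tested, and 11 were higher and none lower, with a median log2 ratio of 4.80. Of 25 signaling and response genes, 23 were tested, 19 were higher and 1 was lower, with a median log2 ratio of 4.40. Together the lists took 0.0739% and 0.0484% of the reads in seeds and 0.668% and 0.463% in 11 day cotyledons.

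AOS (AT5G42650), allene oxide synthase, was the most abundant of the synthesis genes in 11 day cotyledons, at 234 and 24458, 105-fold (94.0 to 117) higher. AOC2 (AT3G25770), a cyclase, had no read in seeds against 1163 in 11 day cotyledons, at least 587-fold higher, and its normalized values in 3 and 7 day cotyledons and 11 day euphyllas (true leaves) were 2.03, 3.15 and 13.9. OPCL1 (AT1G20510), which activates the intermediate for beta-oxidation, had 93.4 and 14439.8, 155-fold (130.2 to 185) higher, beside 95.6, 1037 and 1164 in the same other libraries. OPR3, the peroxisomal reductase, had 362 and 10112, 28.0-fold (25.6 to 30.6) higher. The lipoxygenases LOX2 (21.9 and 1179) and LOX6 (199 and 1414) were 53.8 and 7.11-fold higher. LOX3 and LOX4 had 28.3 and 6269 and 28.3 and 6548, 221-fold (162 to 310.4) higher and 231-fold (169.7 to 324) higher. Their unigenes are 7647 and 7606 bp long, against 4069 and 4239 bp for the matched genes, and how far they share reads was not tested. AOC3 rested on 4 and 53 reads (20.08-fold (7.40 to 76.4) higher). FAD7, which desaturates plastid lipids, and the methyltransferase JMT were 3.04 and 2.96-fold higher, but 1.86 and 1.81-fold and not called by total reads. AOC4 was not called, at 583 and 698. JAR1, which conjugates jasmonate to isoleucine, was not called either, at 1286 and 856, and counted as lower by total reads.

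The receptor subunit COI1 (454 and 232), the adaptor NINJA (349 and 641) and MYC3 (282 and 354) were not called, although COI1 counted as lower by total reads. MYC2 (AT1G32640), the main transcription factor of the response, had 108 and 2305, 21.3-fold (18.1 to 25.3) higher, and MYC4 was lower at 119.6 and 17.2, 6.97-fold (4.17 to 12.5) lower. All 10 JAZ repressors tested were higher. JAZ1 (AT1G19180) had 577 and 10580, 18.3-fold (17.1 to 19.7) higher, JAZ6 77.8 and 6044, 77.6-fold (64.3 to 94.6) higher, and JAZ9 24.8 and 5998, 242-fold (174 to 348) higher. JAZ2 had no read in seeds against 1399 in 11 day cotyledons, at least 707-fold higher. JAZ5 rested on 5 and 2281 reads, 691-fold (296 to 2131) higher. JAZ3, JAZ8 and JAZ7 were 47.8, 25.1 and 41.7-fold higher, and JAZ10 and JAZ12 15.3 and 11.9-fold. The enzymes that oxidize or sulfate the hormone and so end the signal were higher as well. CYP94B3 had 32.5 and 536, CYP94C1 63.0 and 314 and ST2A 36.8 and 369.9, with folds of 16.5, 4.99 and 10.1.

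Among response genes, VSP1, a storage protein and phosphatase of wounded leaves, had 157 and 5126, 32.6-fold (28.5 to 37.5) higher. CORI3, a cystine lyase, had 837 and 7741, 9.25-fold (8.69 to 9.84) higher. TAT3, a tyrosine aminotransferase, counted 3 reads in seeds against 2331 in 11 day cotyledons, 1177-fold (402 to 5713) higher, with values of 0, 86.1 and 128 in 3 day cotyledons, 7 day cotyledons and euphyllas. JR1, a jasmonate-responsive lectin, had 22.6 and 762, 33.7-fold (23.63 to 49.6) higher, and CLH1, a chlorophyllase, had no read in seeds against 63 in 11 day cotyledons. Of all 5 libraries, the 11 day cotyledons held the highest value for 10 of 13 synthesis and 18 of 23 signaling members, beside 27.7% of all unigenes tested. Unigenes longer than their matched gene made up 7 and 15 of the members tested. Without them the median log2 ratios were 2.21 over 6 and 4.82 over 8 members.

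**Figure D3:**
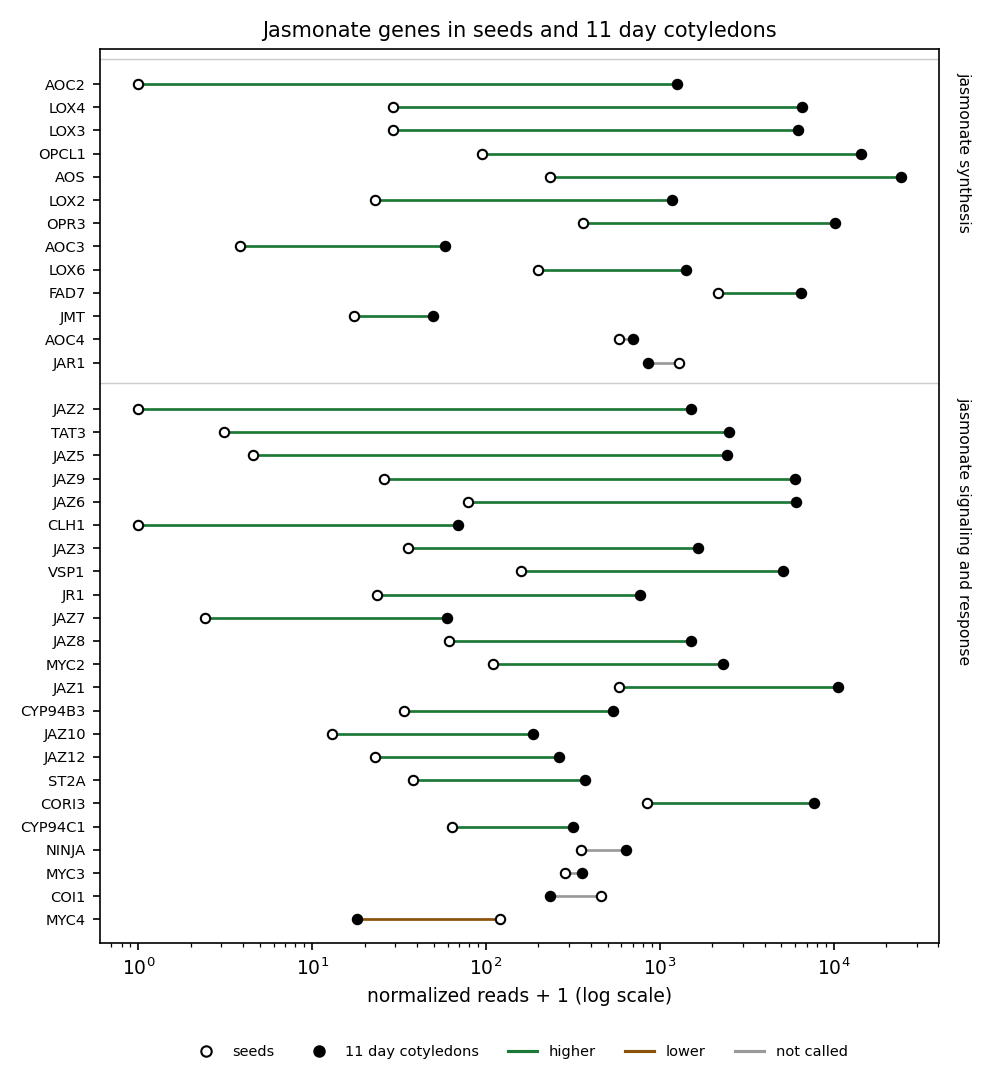
Normalized reads plus 1 (x axis, log scale) of each tested jasmonate gene in seeds (open circles) and 11 day cotyledons (filled circles), with the line colored by call. All but 4 of the 23 signaling genes and all but 2 of the 13 synthesis genes lie higher in 11 day cotyledons by the call, and MYC4 alone is called lower.

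Among genes of abscisic acid, paralogs stood on opposite sides. Of 18 response genes tested (22 written), 13 were higher and 2 lower, with a median log2 ratio of 2.15, and by total reads 12 were higher and 5 lower. COR78, also known as RD29A and a marker of drought and cold, had 21.2 and 5642, 266-fold (186 to 394) higher, while RD29B, its neighbor in *Arabidopsis*, was low in both at 21.9 and 15.0 and counted as lower by total reads. The dehydrin ERD14 had 252 and 26696, 106-fold (95.4 to 118) higher, and the NAC factor RD26 594 and 5791, 9.75-fold (9.07 to 10.5) higher. The phosphatases ABI1 and ABI2, which brake the signal, were 2.62 and 7.27-fold higher (ABI1 1.601-fold and not called by total reads), and HAI2 was lower at 171 and 8.58, 19.96-fold (9.97 to 46.8) lower. Of 8 genes of synthesis and breakdown tested (10 written), 5 were higher and 2 lower. NCED3, the drought-induced dioxygenase of synthesis, counted 1 read in seeds against 417 in 11 day cotyledons, 632-fold (113 to 25016) higher. ABA1, which makes the precursor violaxanthin, had 1027 and 11125, 10.8-fold (10.3 to 11.5) higher. CYP707A2, the hydroxylase that removes the hormone in imbibed seeds, had 1546 and 41.8, 37.0-fold (27.0 to 52.1) lower, whereas CYP707A3, another such hydroxylase, had 561 and 1959.9, 3.49-fold (3.21 to 3.80) higher. The list median of 2.39 was 0.14 over the 5 unigenes no longer than their matched gene.

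Salicylate and pathogenesis related genes were few. Of 12 written, 8 were tested, 6 higher and 1 lower, with a median log2 ratio of 2.02 (0.999 over the 3 no longer than their match). PR2, a glucanase, had 242 and 1787, 7.39-fold (6.57 to 8.32) higher. The synthase ICS1 and the regulator CBP60G were 2.01 and 3.26-fold higher, but 1.23 and 1.99-fold and not called by total reads. PR1, the usual marker of the salicylate response, had 0 and 2 reads and was not tested.

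Glucosinolate genes were counted by branch. Broccoli makes aliphatic glucosinolates from methionine and indolic ones from tryptophan, with the later steps in common, and sprouts are valued for the aliphatic glucoraphanin. Of 27 aliphatic genes written, 13 had a unigene and 10 were tested, with 3 higher, 3 lower and 4 not called. Over all unigenes tested, 30.9% were higher and 28.0% lower. The median log2 ratio of the aliphatic list was 0.60, and -0.09 by total reads, so the group had no direction that held. With at least 100 reads 5 members were left, 3 higher and none lower. Their median was then 1.97, beside 1.84 for the indolic list, so a difference between the branches did not hold either. CYP83A1, which oxidizes aldoximes of the aliphatic branch, counted 2 reads in seeds against 322 in 11 day cotyledons, 244-fold (66.99 to 2023) higher, with 922 in 7 day cotyledons. The sulfotransferase SOT17 had 236 and 1628, 6.91-fold (6.13 to 7.80) higher, and the glutathione transferase GSTU20 1097 and 4314, 3.93-fold (3.71 to 4.17) higher. GSTF11, the other transferase of the branch, was lower on 23 and 2 reads. The isomerase subunit IPMI2 and the oxygenase FMO-GSOX5, which makes sulfinyl side chains, were lower, with 26 and 60 reads in seeds and 5 and 6 in 11 day cotyledons. Chain elongation genes BCAT3 (275 and 482), IPMDH1 (17.7 and 23.59) and IIL1 (1379.8 and 2571) and the oxygenase FMO-GSOX2 (9.91 and 11.8) were not called. IPMDH3 had 13 and 2 reads and was not tested. The regulator MYB28 counted 3 reads in seeds against 4 in 11 day cotyledons, too few to test, beside values of 107, 102 and 107 in 3 day cotyledons, 7 day cotyledons and euphyllas. MYB29 had no read in either, with 52.5 in 7 day cotyledons.

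The indolic branch was higher up to the core structure and lower in ring hydroxylation. Of 18 genes written, 17 were tested, 10 higher and 4 lower, with a median log2 ratio of 1.82. CYP79B2 (AT4G39950) and CYP79B3 (AT2G22330), which convert tryptophan into the aldoxime, had 87.0 and 1029 and 0.708 and 307, 11.8-fold (9.79 to 14.4) higher and 433-fold (77.2 to 17176) higher. CYP83B1, the next enzyme, had 962 and 3387, 3.52-fold (3.30 to 3.76) higher. The transferases GSTF9 and GSTF10 were 4.21 and 3.64-fold higher, at 1091 and 4594 and 844 and 3071. UGT74B1, which adds the glucose, had 171 and 1176, 6.87-fold (5.97 to 7.93) higher, and the sulfotransferase SOT16 1094 and 5762, 5.27-fold (4.98 to 5.58) higher. ASA1, which starts tryptophan synthesis, had 492 and 1847, 3.76-fold (3.44 to 4.11) higher, whereas TSB1, which ends it, was not called at 421 and 264 and counted as lower by total reads.

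All 4 CYP81F hydroxylases were lower. CYP81F2 (AT5G57220), which is needed for the 4-methoxy derivative in *Arabidopsis*, had 1257 and 233, 5.40-fold (4.69 to 6.25) lower. CYP81F4, which leads to the 1-methoxy derivative, had 379 and 8.58, 44.1-fold (22.2 to 103) lower. CYP81F1 had 78 reads in seeds against none in 11 day cotyledons, and CYP81F3 had 58.7 and 28.9, 2.03-fold (1.3003 to 3.26) lower, which was not called with TMM factors. The methyltransferases that act after them were not lower. IGMT1 had 89.2 and 700.1, 7.85-fold (6.48 to 9.58) higher, and IGMT2 103 and 203, which was not called. The regulator MYB34 was 3.20-fold higher, at 63.0 and 202, but 1.96-fold and not called by total reads, and MYB51 was not called, at 90.6 and 132. The authors report CYP81F2, IGMT2, UGT74B1, MYB28 and MYB34 as not detected. The authors dropped glucosinolate unigenes below a cutoff of identity to the *Arabidopsis* genes and do not say which. That cutoff was not applied here, so these names rest on the best match alone.

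The steps and carriers that both branches use were higher in 7 of 8 tested members, all with a unigene, with a median log2 ratio of 1.85, and in 4 of 8 by total reads. GGP1, which trims the glutathione conjugate, had 780.5 and 7330.3, 9.39-fold (8.81 to 10.02) higher. The transporter GTR1, which loads glucosinolates into the phloem, had 272 and 2926, 10.7-fold (9.65 to 11.98) higher, and GTR2 1535 and 4877, 3.18-fold (3.02 to 3.34) higher. APK1 and APK2, which supply active sulfate, were 4.13 and 23.1-fold higher. SUR1 (179 and 536) and the sulfotransferase SOT18 (79.3 and 164) were 2.99 and 2.07-fold higher, and with GTR2 they were under the 2-fold limit by total reads. GSH1, the limiting enzyme of glutathione synthesis, was not called, at 4680 and 5791. All 8 had their highest value of the 5 libraries in 11 day cotyledons, beside 27.7% of all unigenes tested. By total reads the ratio of GSH1 was 0.757, so it stood higher in seeds on that scale.

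Genes of glucosinolate breakdown split into contrasting sets. Of 22 written, 19 were tested, 10 higher and 7 lower, with a median log2 ratio of 1.002. By total reads 9 were higher and 7 lower, with a median of 0.30. PEN2 (AT2G44490), a myrosinase that acts on indolic glucosinolates in living cells, had 248 and 2437, 9.84-fold (8.79 to 11.04) higher, and PEN3 (AT1G59870), the transporter of its pathway, 139 and 12346, 88.6-fold (76.9 to 102) higher. MBP2 (AT1G52030), a myrosinase-binding protein, had 259 and 22145, 85.5-fold (77.1 to 95.1) higher, and its relative MBP1 was lower, at 133 and 2.14, 62.0-fold (16.9 to 516) lower. Of the classical myrosinases TGG2 had 38.2 and 818, 21.4-fold (16.2 to 28.8) higher, and TGG1 55.2 and 112, 2.02-fold (1.49 to 2.75) higher, but 1.24-fold and not called by total reads. The specifier proteins decide whether nitriles or isothiocyanates form. NSP1 and NSP5 were lower (30.2-fold lower and 2.84-fold lower), NSP2 and NSP4 were higher (58.0-fold higher and 72.2-fold higher, on unigenes of 4249 and 4237 bp), and ESP, the epithiospecifier protein, was not called at 275 and 292. ESM1, which modifies its action, had 43.2 and 147 but 16886 in 3 day cotyledons.

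The genes of endoplasmic reticulum bodies, which store beta-glucosidases in seedlings and roots, were on both sides. PYK10, the main such glucosidase, had 759 and 2.14, 354-fold (97.7 to 2925) lower, and NAI2, which forms the bodies, 444 and 4.29, 104-fold (40.3 to 381) lower. NAI1, the transcription factor that controls them in *Arabidopsis*, had 19.1 and 1667, 87.3-fold (59.7 to 133) higher. The related glucosidase BGLU30 had 386 reads in seeds against none in 11 day cotyledons, and BGLU18, a glucosidase that also frees abscisic acid, had 7.78 and 266, 34.2-fold (18.8 to 69.3) higher. The nitrilase NIT1 was lower, at 1236 and 76.1, 16.2-fold (12.8 to 20.9) lower, and NIT2 was not called, at 3912 and 7642, although it passed the limit with TMM factors.

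**Figure D4:**
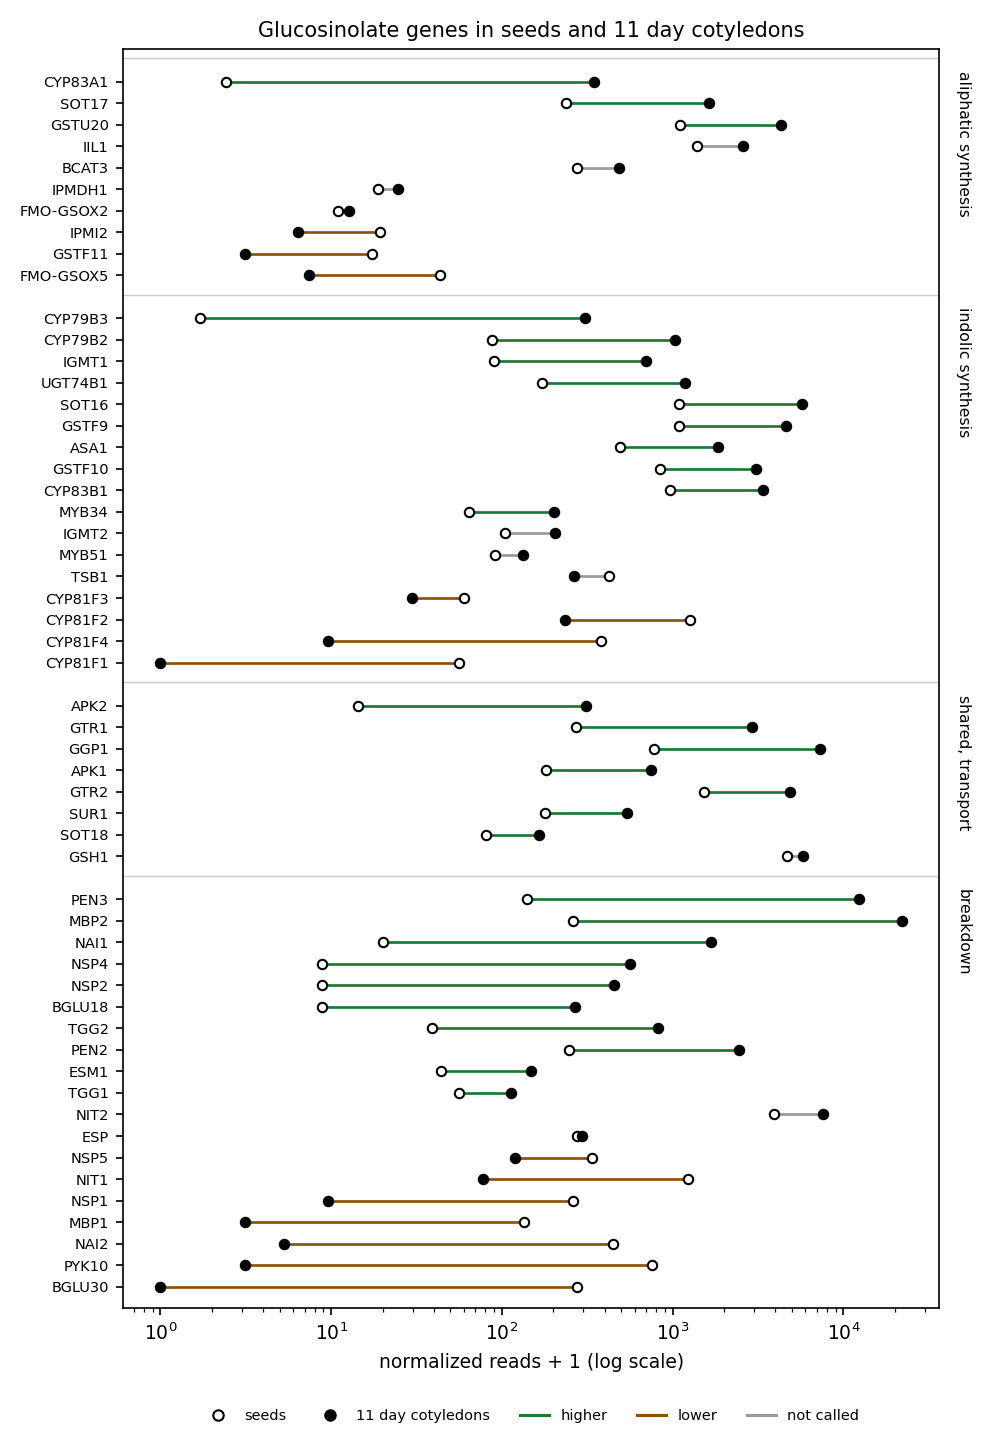
Normalized reads plus 1 (x axis, log scale) of each tested glucosinolate gene in seeds (open circles) and 11 day cotyledons (filled circles), grouped by branch, with the line colored by call. The 4 CYP81F genes lie lower in 11 day cotyledons while 10 other indolic genes lie higher, and the breakdown genes spread from BGLU30 to PEN3 on either side.

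Sulfate uptake and assimilation, which feeds the pathway, was higher in 12 and lower in 3 of 19 tested members (22 written), and in 8 and 5 by total reads. The median log2 ratio was 1.33. GSH2, which completes glutathione, had 836 and 6769, 8.10-fold (7.61 to 8.63) higher. Among ATP sulfurylases APS3 was 19.7-fold (17.5 to 22.2) higher, at 214 and 4214, and APS1 had 2199 and 4667, 2.12-fold (2.03 to 2.22) higher, but 1.299-fold and not called by total reads. The reductase APR3 was lower, at 2716 and 448, 6.06-fold (5.48 to 6.72) lower, and APR2 too, at 1257 and 549. The cysteine synthase OASA1 had 1361 and 3623, 2.66-fold (2.52 to 2.82) higher, but 1.63-fold and not called by total reads. The transporter SULTR1;1 had 37 reads in seeds against none in 11 day cotyledons, and SULTR2;1 none and 101.

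Genes that move carbon out of the leaf were among the higher ones. Of 24 starch and sugar genes, 15 were higher and 2 lower, with a median log2 ratio of 2.05. The beta-amylase BAM1 had 424 and 7959, 18.8-fold (17.3 to 20.4) higher, and the cytosolic phosphorylase PHS2 403 and 6659, 16.5-fold (15.2 to 18.1) higher. The exporters SWEET11 and SWEET12, which pass sucrose to the phloem, had 111 and 2690 and 119 and 3347, 24.2-fold (20.6 to 28.6) higher and 28.2-fold (24.1 to 33.1) higher, and values of 41.6 and 50.8 in euphyllas. SUC2, which loads it, had 594 and 4121, 6.93-fold (6.43 to 7.48) higher. Sucrose synthase SUS1 and the invertase CWINV1 were lower (2.65-fold lower and 4.35-fold lower).

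In nitrogen assimilation 8 members were higher and 4 lower of 14 tested, with a median log2 ratio of 1.603. The leaf form of glutamate synthase, GLU1, had 1067 and 25144, 23.56-fold (22.4 to 24.8) higher, and the form of non-green tissue, GLT1, 16363 and 6348, 2.58-fold (2.50 to 2.65) lower. Likewise the plastid glutamine synthetase GLN2 was 20.7-fold (17.2 to 25.2) higher, and the cytosolic GLN1;1 and GLN1;3 were lower, at 12737 and 3456 (3.69-fold lower) and 11345 and 1673 (6.78-fold lower). The nitrate reductase NIA1 had 1578 and 21724, 13.8-fold (13.2 to 14.4) higher. Among aquaporins 10 of 16 tested were higher and 3 lower (median log2 ratio 1.87). TIP3;1, the channel of protein storage vacuoles, had 452 reads in seeds against none in 11 day cotyledons, at least 99.4-fold lower. Vacuolar TIP1;2 had 2349.9 and 22333, 9.50-fold (9.16 to 9.86) higher, and the plasma membrane channels PIP1;2 and PIP2;2 were 6.09 and 4.31-fold higher.

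Cuticular wax and flavonoid genes had no common direction. Of 19 wax genes 8 were higher and 3 lower (median log2 ratio 0.76), and by total reads 8 and 4 (median 0.056). KCS9, an elongase, had 223 and 855, 3.83-fold (3.36 to 4.38) higher, CER5, an exporter of wax, 223 and 733, 3.29-fold (2.87 to 3.77) higher, and the reductase KCR1 was lower, at 546 and 199, 2.74-fold (2.33 to 3.23) lower. Of 22 flavonoid genes written, 18 had a unigene but 11 had reads enough, with 3 higher and 3 lower. CHS, chalcone synthase, had 809 and 81.5, 9.93-fold (7.86 to 12.7) lower, against 7113 in 3 day cotyledons. MYBL2, a repressor of anthocyanin synthesis, counted 4 reads in seeds against 350 in 11 day cotyledons, 133-fold (51.3 to 489) higher. TT19 was also called lower. The list median was just under 0, and 0.04 with TMM factors.

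Cell cycle and replication genes were mostly lower. Of 23 tested (27 written), 12 were lower and 5 higher, with a median log2 ratio of -1.23, and by total reads 13 and 2. PCNA1, the sliding clamp of replication, had 812 and 57.9, 14.03-fold (10.7 to 18.8) lower, and RNR1, which makes deoxynucleotides, 1426 and 326, 4.37-fold (3.88 to 4.95) lower. Of the MCM helicase subunits 5 were lower, from 3.20 to 7.72-fold, and MCM2 was higher, at 741 and 1707, 2.304-fold (2.13 to 2.49) higher, but 1.41-fold and not called by total reads. CYCD3;1, a cyclin, had 96.9 and 2289, 23.61-fold (19.9 to 28.3) higher, on a unigene of 6073 bp against 1916 bp for the gene. Mitotic genes were low in both, with KNOLLE, the cytokinesis syntaxin, at 5 and 7 reads, beside a value of 336 in euphyllas.

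Root and shoot tip markers, for tissues that the harvested cotyledons should lack, were mostly lower. Of 16 root and root cap markers, 7 had a unigene, 4 were tested and all 4 were lower. PIN2, an auxin carrier of the root epidermis, had 386 and 4 reads, RHD6, a root hair regulator, 42 and none, and SCR and SHR, which pattern the root and also leaves, were 3.33 and 2.11-fold lower. Of 10 shoot meristem and leaf primordium markers, 4 were tested, 3 lower and 1 higher. BP, a meristem homeobox gene, and AN3, a coactivator of leaf growth, had 54 and 341 reads in seeds against none in 11 day cotyledons, GRF5 249 and 2, and ANT, which promotes organ growth, 8 and 24. Seed coat markers did not separate the libraries. Of 6 tested, SBT1.7, a subtilase of mucilage release, was lower at 3831 and 1854, MUM2, a galactosidase of mucilage, was higher at 2.83 and 2473 (874-fold (341 to 3210.1)), KNAT7 was higher on 27 and 37 reads though not by total reads, and the other 3 were not called. The median log2 ratio of 0.27 was -0.44 by total reads. Summed over all members with a unigene, the values were 708 in seeds and 136 in 11 day cotyledons for root, 464 and 27.9 for shoot tip, and 4259.7 and 4797 for seed coat markers. PLT1, WOX5 and STM, which define root and shoot meristems, had 3, 1 and 4 reads in seeds against none in 11 day cotyledons. The share of these tissues in the other groups that were lower was not tested.

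Guard cell and stomatal lineage genes were higher in 6 of 9 tested members (13 written), with a median log2 ratio of 3.51. Over the 4 unigenes no longer than their match, 1 was higher and 1 lower, and the median was 0.17. MYB60, a guard cell transcription factor, had no read in seeds against 206 in 11 day cotyledons, at least 104-fold higher, and the potassium channel KAT1 had 14.9 and 180.1, 12.1-fold (7.68 to 20.097) higher. The kinase HT1 had 6.37 and 135, 21.2-fold (10.8 to 47.5) higher. SPCH, which starts the lineage, was lower on 18 and 2 reads, and FAMA, which ends it, was not called, at 115 and 178.

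Of the circadian clock genes 5 were higher and 3 lower of 13 tested, and 2 and 7 by total reads. LHY, expressed at dawn in *Arabidopsis*, had 507 and 76.1, 6.66-fold (5.21 to 8.62) lower, and PRR7 had 294 and 2070.3, 7.03-fold (6.32 to 7.84) higher. GI, an evening gene, had 587 and 1304, 2.22-fold (2.03 to 2.43) higher, but 1.36-fold and not called by total reads. The hour of harvest is not stated, so age and hour cannot be told apart.

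The unigenes with the largest ratios came from these groups and from outside them. Besides PSAH2, the 10 largest upward ratios among *Arabidopsis*-matched unigenes with at least 200 reads (unigenes without a read in 1 library ranked by their lower bound, so that the order is uncertain) included CA2, a carbonic anhydrase, with no read in seeds against 6201 in 11 day cotyledons, at least 3132-fold higher. NDF6, a subunit of the plastid NDH complex, had 2 and 3714 reads, 2814-fold (778 to 23243) higher. A lipase-like unigene matched to AT5G24180 had 2 and 8850 reads, 6705-fold (1856 to 55373) higher, with values of 0, 1523 and 648 in 3 day cotyledons, 7 day cotyledons and euphyllas. A Kunitz-type protease inhibitor (AT1G73325) had 1 and 1838 reads, and the TRAF-like genes AT2G32880 and AT2G32870, which neighbor each other by their numbering, 2 and 4002, and 1 and 1159. BT1, a BTB and TAZ domain protein, had none and 4892, at least 2471-fold higher. The nudix hydrolase listed as atnudt8 and the homeobox factor ATHB-7, a responder to water deficit, had 2 and 1 reads in seeds and 2850 and 1208 in 11 day cotyledons. Of these 10, CA2 and PSAH2 had higher values in 7 day cotyledons, at 19632 and 6408.

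On the other side stood a papain-type cysteine protease (AT3G54940) with 5800 reads in seeds against 2 in 11 day cotyledons, 1914-fold (529.6 to 15808) lower. A protein of the rubber elongation factor family (AT2G47780), a family that sits on lipid droplets, had 5800 and 3 reads, 1276-fold (436 to 6189) lower, and still a value of 4688 in 3 day cotyledons. A PhzC/PhzF-like protein (AT4G02850) had 1912 and 1 reads, AT3G19920, of unknown function, 2012 and 2, and a mannose-binding lectin (AT3G16460) 896 and 1. ARL, which promotes cell expansion, had 1210 and 2 reads, and an Ole e 1-like extensin family protein (AT2G47530) 1207 and 2. AHG1, PER62 and EXPA2, given above, complete the 10.

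The most abundant unigenes of the seeds were a pair matched to *Medicago* proteins in the nr database, one of them annotated as an rRNA intron-encoded homing endonuclease. They had 110460 and 8694 and 85297 and 7472. With the unigenes named RPT6A (8477 bp, against 3074 bp for the gene) and AT3G01310 they took 4.81% of all reads in seeds and 0.258% in 11 day cotyledons. Next were PORB, the elongation factor genes AT1G07940 (38205 and 10796) and AT5G60390 (35002 and 9946) and LOS1, an elongation factor of translocation (34562 and 10427), then ICL and the chaperone Hsp81.4 (32943 and 11679), each lower in 11 day cotyledons by 2.82 to 27.4-fold.

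In 11 day cotyledons LHCB1.4, RCA, RBCS3B and CAT3 led. Per kilobase of unigene RBCS3B was the highest, with a normalized value of 122914 against 67299.8 for LHCB1.4. Among the 10 most abundant stood unigenes named for a helicase (NIH, 14357 bp against 7179 bp for the gene), a chromosome protein (ATSMC2, 6174 against 6630 bp), a recombinase (RECA, 5801 against 3220 bp) and a kinase (ASK2, 9704 against 2763 bp), each higher by 14.3 to 85.1-fold. The names of NIH, RECA and ASK2 are uncertain, since unigenes longer than their match may join transcripts of more than 1 gene. The same limit holds for LHCB1.4 (5163 against 1007 bp), RCA (4824 against 2802 bp), CAT3 (4839 against 3473 bp) and GAPA2 (9637 against 1950 bp). It also holds in the seeds for PORB (6142 against 1807 bp), LOS1 (6978 against 3812 bp) and ICL (4723 against 3524 bp). AT1G07940 (3366 against 2551 bp), AT5G60390 (3660 against 2362 bp) and AT3G01310 (8203 against 7821 bp) were longer too. Among the largest ratios, PSAH2, AT5G24180, AT2G32880, AT1G73325, AT2G47780, AT2G47530, AHG1 and AT3G19920 were longer than their match as well. ATSMC2 is not longer than its match, but whether its name is right was not tested. Of the 16454 tested unigenes with an *Arabidopsis* match, organelle genes included, 37.3% were longer than the matched gene.

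Set beside the other libraries, the list medians of the 11 day cotyledons were not the end of a steady course for every group. The median normalized value of the light harvesting list was 105 in seeds, 4196 and 16282 in 3 and 7 day cotyledons, and, at 11 days, 15334 in cotyledons against 7667 in euphyllas. That of jasmonate synthesis was 93.4, 172, 846, 1414 and 705 in the same order, and that of indolic glucosinolate synthesis 171, 59.0, 282, 307 and 69.3. By this median the indolic genes stood higher in seeds than in 3 day cotyledons and highest in 11 day cotyledons.

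**Figure D5:**
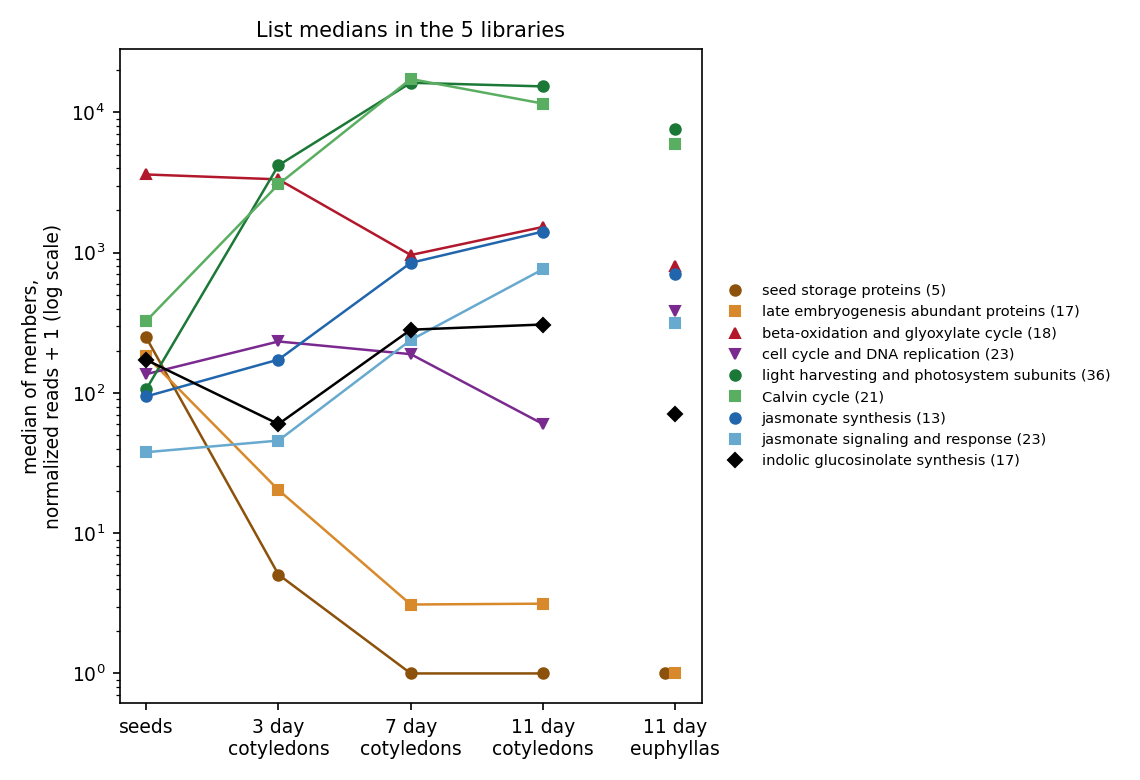
Median normalized reads plus 1 over the tested members of 9 lists (y axis, log scale) in seeds, cotyledons of 3, 7 and 11 days, and euphyllas of 11 days, with lines joining seeds and cotyledons. The median of seed storage proteins is 248 in seeds and 0 in 7 and 11 day cotyledons, and light harvesting genes stand at 15334 in 11 day cotyledons.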

How the data were processed

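The authors trimmed the reads, assembled all 5 libraries together with Velvet and Oases (k-mer length 69), named unigenes by BLAST against *Arabidopsis* and then nr (E-value limit 1E-5), mapped reads back with Bowtie, and normalized with DESeq. The sources used here do not give their versions. As deposited, the tables of library pairs hold raw counts per unigene and a normalized signal, the count divided by the size factor of its library. Counts exceed the trimmed read pairs, so mates or repeat placements are counted and the intervals are too narrow. The log2 ratios, p-values and FDR of the authors and 8 columns of RPKM in the 4 tables used were not used.

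Ratios of the normalized values of 11 day cotyledons and seeds carry exact conditional binomial (Clopper-Pearson) 95% intervals. Medians use log2(value + 1). With 1 library a side there is no test, p-value or replicate error. The 33 gene lists (612 genes, 520 with a unigene) were written by *Arabidopsis* gene code, and they and the comparison were chosen with earlier results of these data known. The text names the 10 largest ratios in each direction (*Arabidopsis*-matched, at least 200 reads), the 10 highest values of each library, the 3 most-read called members of each list, and all jasmonate and glucosinolate members. Members named beyond this rule were chosen after their values were seen, to show exceptions. Alternatives covered scaling (total reads, TMM of edgeR 4.0.16 in R 4.3.3), read minimum, fold limit, interval, pseudocount, halved counts and, added after seeing the data, unigene length and total reads without the 4 unigenes with the most reads in seeds. The call rule was run on simulated counts with counting error only, without spread between plants or repeat placements. It therefore says nothing on those sources of error. The limit on interval coverage, first set for each simulated fold, was set for all changed genes together after a fold missed it. Computations used Python 3.11.15 with scipy 1.17.1.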

Additional observations from a re-analysis of the deposited data

How the results depend on the processing

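No paired analysis was possible because each side is 1 pooled library, and for the same reason no replicate could be left out. Against 5222 unigenes called higher and 4738 lower, a 4-fold limit gave 3275 and 2250, and unigenes no longer than their matched gene, fewer of which exist, gave 2889 and 2923. Total reads gave 3707 and 7378, and total reads without the 4 most-read unigenes of seeds 3590 and 7664. Both scales move every ratio down together. The other settings kept both counts within 1.5 times, between 4027 and 5763 higher and between 3658 and 4929 lower. TMM factors, no minimum of reads, at least 100 reads, the stricter interval and halved counts were the settings behind that range.

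Of 33 lists, 21 had a median above 0, and 19 to 23 under the alternatives. Signs changed in these lists. Aliphatic glucosinolate synthesis became -0.088 by total reads, flavonoid genes 0.044 with TMM factors and 0.68 over unigenes no longer than their match, and clock genes 0.040 over the latter. Seed coat markers became -0.44 by total reads and -0.34 both with no minimum and with at least 100 reads. The cause was not tested for those changes that come from leaving out unigenes. Other medians kept their sign but moved by over 1 log2 unit. A pseudocount of 10 brought seed storage proteins from -7.47 to -4.69, late embryogenesis abundant proteins from -5.87 to -3.78, oil body proteins from -5.10 to -3.55, maturation regulators from -5.48 to -2.75, root markers from -3.33 to -1.81, shoot tip markers from -5.55 to -3.10 and guard cell genes from 3.51 to 2.11. With no minimum of reads maturation regulators stood at -2.87 and root markers at -1.72. With at least 100 reads root markers stood at -1.72, shoot tip markers at -6.87, aliphatic glucosinolate genes at 1.97 and chlorophyll breakdown genes at 3.13. Over unigenes no longer than their match oil body proteins stood at -6.13, germination genes at -2.37 and root markers at -5.32, beside the lists for which the report gives it. By total reads 15 germination genes were lower and 1 higher. Of 272 unigenes that were tested and are named in the text or by the naming rule, none was called in opposite directions. By total reads 18 were no longer called and 8 became called, and with TMM factors 1 and 2. The spread between plants was not measured, and ratios on fewer than about 100 reads have wide intervals.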

Other observations

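Transcription factor families and organelle genes, listed after the data were seen, had counts of their own. Of 52 NAC unigenes tested, 28 were higher and 14 lower in 11 day cotyledons, with a median log2 ratio of 1.23 beside -0.03 for all unigenes. Of all unigenes tested 30.9% were higher and 28.0% lower. ATAF2, a stress-responsive member, had 901 and 5956, 6.61-fold (6.22 to 7.03) higher, and ANAC019, which acts with abscisic acid and jasmonate in *Arabidopsis*, 116 and 4188, 36.1-fold (30.9 to 42.5) higher. JUB1, a negative regulator of senescence, was lower at 399.8 and 6.43, 62.1-fold (28.4 to 170.1) lower. Of 41 WRKY unigenes 16 were higher and 9 lower, with a median log2 ratio of 0.17 and a range from -5.62 to 4.51. WRKY40 and WRKY33, both linked to defense, had 167 and 3051 and 121 and 2770.4, 18.3-fold (16.0 to 21.0) higher and 22.9-fold (19.6 to 26.9) higher. Of 68 ERF and DREB unigenes 29 were higher and 24 lower, with a median log2 ratio of 0.27 and a range from -7.19 to 10.6. DDF1, a DREB factor, had no read in seeds against 1452 in 11 day cotyledons, at least 733-fold higher. ORA47, which activates jasmonate synthesis genes in *Arabidopsis*, had 2 and 867 reads, 657-fold (181 to 5432) higher. All of these genes were chosen after their values were seen, and none of the lower WRKY, ERF or DREB members is named.

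Unigenes matched to the plastid genome were lower in 21 and higher in 8 of 38 tested, although nuclear photosynthesis genes were higher. RBCL, the large subunit of Rubisco, counted 111 reads in seeds against 475 in 11 day cotyledons, 6.48-fold (5.26 to 8.05) higher, and RPOB, a subunit of the plastid RNA polymerase, 1971 and 267, 4.87-fold (4.29 to 5.56) lower. Mitochondrial unigenes were lower in 15 and higher in 6 of 23. Capture by poly-T beads recovers organelle RNA poorly, so these counts describe what was captured.

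By the eggNOG classes of the deposited annotation, translation had 44 unigenes higher and 225 lower of 373 tested, with a median log2 ratio of -1.44. Inorganic ion transport had 99 higher and 37 lower of 202, carbohydrate metabolism 145 and 64 of 327, and signal transduction 77 and 28 of 186. The shares over all unigenes tested were 30.9% higher and 28.0% lower, and only some of the classes are given. Total reads as the scale would shift these medians by about the -0.70 found for all unigenes. The calls within classes were not counted on that scale.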
